A study of Homo sapiens with 9 samples.

Results

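The circadian clock genes of A375R melanoma cells were followed over 3 treatments. The genes are the period genes PER1, PER2 and PER3, the cryptochrome genes CRY1 and CRY2, the nuclear receptor genes NR1D1 and NR1D2 (REV-ERB alpha and beta), the helix-loop-helix repressor genes BHLHE40 and BHLHE41 (DEC1 and DEC2) and DBP, a transcription factor gene of the clock's output. They were taken by gene symbol, which found all 10 among the 62710 genes of the deposited table. A375R is a derivative of the human melanoma cell line A375 that is resistant to the BRAF inhibitor PLX4032. The methods give 2 µM PLX4032 in the culture medium of this line, and the labels do not name it. Cells were kept for 2 h with the solvent DMSO or with a compound, VHL-r or R4VPL3-1, at 10 µM, each with 3 libraries from independent repeats of the experiment. A PROTAC joins ligands of a target protein and of a ubiquitin ligase, so that the target is degraded. VHL-r is the moiety that binds the ubiquitin ligase VHL, and R4VPL3-1 is the full PROTAC-like molecule in which this moiety is joined to a ligand of the ubiquitin ligase RNF4. The labels name the control cells WT and give them no dose, and the series design names DMSO as the control. The column names of 2 of the 3 DMSO libraries also carry the 2 h mark. All 3 treatments used the same resistant line, and the clock time of harvest and any synchronisation of the cells are not given in the sources used here.

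The mammalian clock is a transcriptional feedback loop. CLOCK and BMAL1 bind E-boxes in DNA and activate the period and cryptochrome genes, whose proteins enter the nucleus and repress CLOCK and BMAL1. NR1D1 and NR1D2 form an auxiliary loop by repressing BMAL1, BHLHE40 and BHLHE41 compete for E-boxes, and DBP activates genes through D-boxes. Several of these genes also respond acutely to signals outside the cycle. PER1 is a classical immediate target of cAMP signalling and of glucocorticoids, and BHLHE40 is also induced by hypoxia through the factor HIF-1. VHL is the ligase that marks HIF alpha subunits for degradation.

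RefSeq promoter windows of the 10 genes, from 250 bases before to 50 bases after a transcription start (GRCh38.p14), numbered 13 in all, since PER3, CRY2 and NR1D2 have 2 each. They are printed for the genes whose RNA differed most between treatments (PER1 and CRY2), for BHLHE40, whose change was smaller, and, as genes whose RNA passed no test, for CRY1 and for the NR1D2 window that holds 2 E-boxes. Capitals mark matches, on either strand, to CACGTG (E-box), TGACG (the core of the cAMP response element), AGGTCA (the core site of many nuclear receptors) or ACGTG (the core of the hypoxia response element). Each CACGTG is also a match to ACGTG on both strands. The windows lie at chr17:8152355-8152654 (minus strand) for PER1, chr11:45846868-45847167 and chr11:45847225-45847524 (plus strand) for CRY2, chr3:4979187-4979486 (plus strand) for BHLHE40, chr12:107093500-107093799 (minus strand) for CRY1 and chr3:23945871-23946170 (plus strand) for NR1D2. The windows of PER1, CRY2 (the second) and NR1D2 lie within the annotated interval of their gene, downstream of its outermost start, and the others cover that start.
PER1: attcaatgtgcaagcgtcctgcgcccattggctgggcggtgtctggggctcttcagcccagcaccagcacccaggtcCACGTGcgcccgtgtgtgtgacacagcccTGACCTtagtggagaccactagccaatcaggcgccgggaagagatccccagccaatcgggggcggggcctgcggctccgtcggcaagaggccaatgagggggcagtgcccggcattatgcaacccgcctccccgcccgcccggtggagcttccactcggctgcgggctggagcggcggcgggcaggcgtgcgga
CRY2, first window: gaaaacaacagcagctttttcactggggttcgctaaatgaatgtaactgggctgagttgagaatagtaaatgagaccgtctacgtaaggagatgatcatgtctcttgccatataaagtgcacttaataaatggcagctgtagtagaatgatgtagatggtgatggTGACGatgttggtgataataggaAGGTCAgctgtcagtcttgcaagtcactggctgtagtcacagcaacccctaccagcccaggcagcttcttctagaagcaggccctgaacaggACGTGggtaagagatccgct
CRY2, second window: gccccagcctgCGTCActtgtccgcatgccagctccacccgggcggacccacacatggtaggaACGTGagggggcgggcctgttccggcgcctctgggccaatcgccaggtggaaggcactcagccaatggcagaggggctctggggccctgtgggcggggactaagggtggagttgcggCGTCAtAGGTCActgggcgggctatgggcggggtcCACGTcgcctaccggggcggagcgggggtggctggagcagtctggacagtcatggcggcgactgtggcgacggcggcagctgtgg
BHLHE40: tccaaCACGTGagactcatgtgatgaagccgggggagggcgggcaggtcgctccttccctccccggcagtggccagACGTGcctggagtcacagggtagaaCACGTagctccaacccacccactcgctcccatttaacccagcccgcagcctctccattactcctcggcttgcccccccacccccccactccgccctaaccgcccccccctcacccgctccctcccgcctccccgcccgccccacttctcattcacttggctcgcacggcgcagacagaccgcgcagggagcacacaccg
CRY1: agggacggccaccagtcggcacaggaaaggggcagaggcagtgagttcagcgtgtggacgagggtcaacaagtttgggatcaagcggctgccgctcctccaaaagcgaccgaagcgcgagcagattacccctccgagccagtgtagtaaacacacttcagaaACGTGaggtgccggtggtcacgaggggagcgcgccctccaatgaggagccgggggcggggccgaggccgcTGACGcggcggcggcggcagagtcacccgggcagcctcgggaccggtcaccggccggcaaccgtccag
NR1D2, second window: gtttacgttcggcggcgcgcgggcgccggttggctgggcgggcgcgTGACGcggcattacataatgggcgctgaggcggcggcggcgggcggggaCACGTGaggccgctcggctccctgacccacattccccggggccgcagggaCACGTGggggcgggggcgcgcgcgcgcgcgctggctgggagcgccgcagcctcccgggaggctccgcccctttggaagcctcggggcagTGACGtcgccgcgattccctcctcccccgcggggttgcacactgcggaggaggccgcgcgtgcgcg

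An E-box was found in 4 of the 13 windows, of 4 genes (PER1, NR1D2, BHLHE40 and BHLHE41), and in 7.3% of the 35116 human promoters of the same length. The PER1 window holds 1 E-box and 1 nuclear receptor core, which lies on the strand opposite to the printed one. Both CRY2 windows lack an E-box and hold the cAMP response element and nuclear receptor cores, the former 2 times in the second window. The cAMP response element core was found in 6 of the 13 windows, of 4 genes (PER2, CRY1, CRY2 and NR1D2), and in 24.6% of all promoters. The nuclear receptor core was in 3 windows, of 2 genes (PER1 and CRY2), and in 13.8%. The hypoxia element core was in 9 windows, of 8 genes, all but PER3 and DBP, and in 21.4%. For PER1, BHLHE41 and NR1D2 its only matches lie within their E-boxes. GC content of the 13 windows ran from 46.3%, in the first CRY2 window, to 81.0%, in a PER3 window, against a median of 58.7% over all promoters. These matches describe the letters of the windows and do not show that a factor binds there.

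Transcript levels were compared as normalized counts, the reads of a gene divided by the size factor of its library. A gene was called when limma, fitted over all 15230 genes with a mean of at least 10, gave a p of 0.05 or less after Benjamini-Hochberg adjustment. All 10 clock genes had such a mean. Log2 fold changes are differences of log2(normalized count + 1), printed with their 95% interval.

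PER1 and CRY2 rose close to 2-fold with both compounds, whereas CRY1, PER2, NR1D1, NR1D2, BHLHE41 and DBP passed the test with neither. With VHL-r, 3 of 10 genes were called higher (PER1, CRY2 and BHLHE40), beside 10.3% of all tested genes, and 0 were called lower, beside 9.51%. With R4VPL3-1, 4 of 10 were called higher (the same 3 and PER3), beside 13.1%, and 0 lower, beside 11.8%. The median log2 fold change of the 10 genes was 0.20 with VHL-r and 0.26 with R4VPL3-1, and that of all tested genes was -0.0045 and -0.0063. Between R4VPL3-1 and VHL-r, 0 of 10 genes were called in either direction, beside 1.14% of all genes called higher and 0.729% called lower. Every VHL-r library was above every DMSO library for 4 of the 10 genes, beside 2601 of the 15230 tested genes. With R4VPL3-1 this held for 3 of the 10, beside 2911 of the 15230. Both comparisons with DMSO use the same 3 control libraries. These are bulk libraries, in which a change in the share of cells that express a gene and a change in RNA per cell cannot be told apart.

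**Figure D1:**
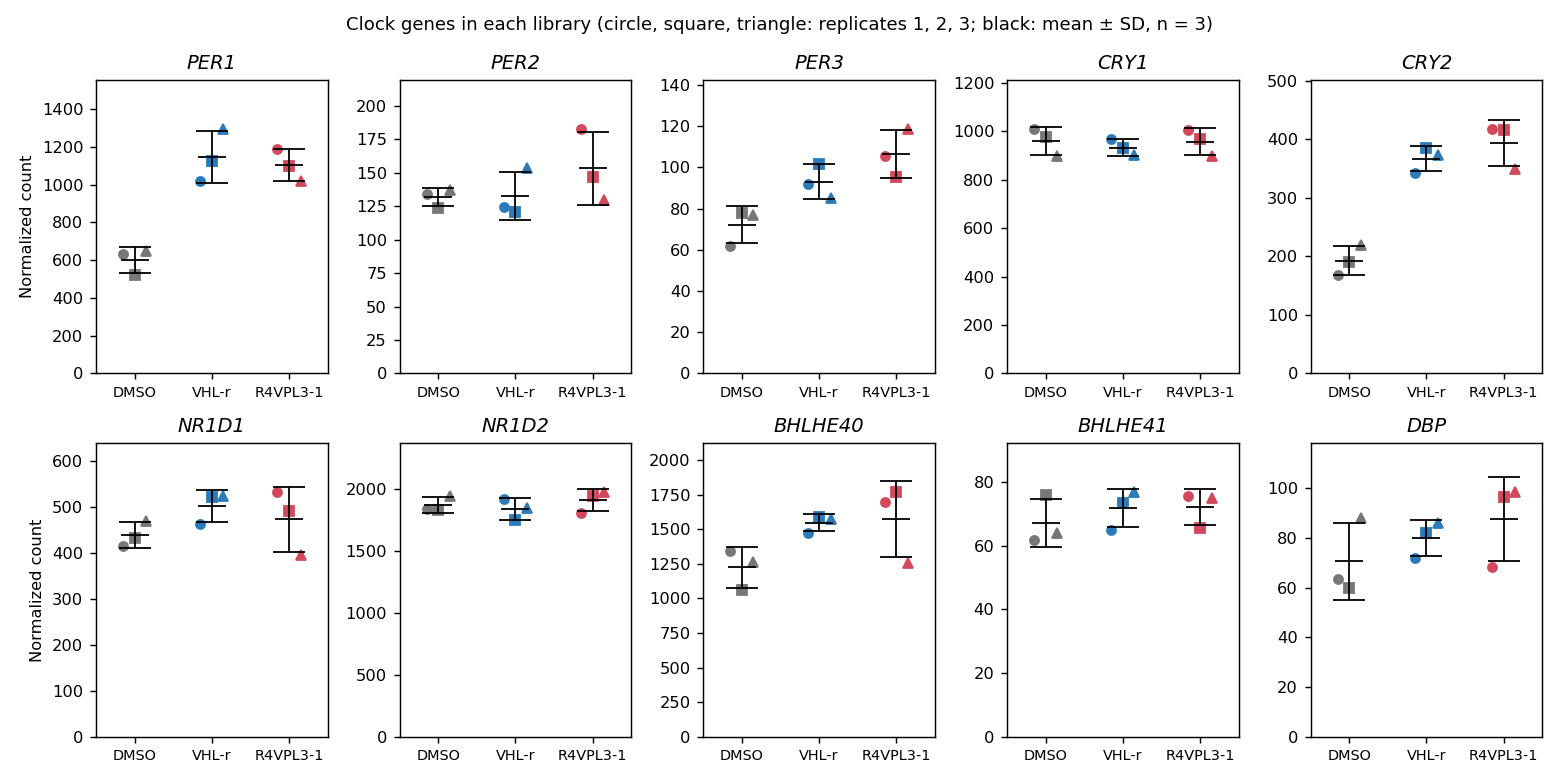
Normalized counts of the 10 clock genes (vertical axes, each from 0) in the 9 libraries by treatment, with circles, squares and triangles for replicates 1, 2 and 3 and black bars for the mean ± SD (n = 3). All VHL-r and R4VPL3-1 libraries lie above all DMSO libraries for PER1, PER3 and CRY2, while the treatments overlap for CRY1 and NR1D2. Of all 15230 tested genes, 2601 lie above DMSO in this way with VHL-r and 2911 with R4VPL3-1.

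The period genes encode the PER proteins, which with the cryptochromes form the repressor complex of the loop. PER1 (ENSG00000179094, chromosome 17, 8140472 to 8156506, minus strand, coordinates of GRCh38) had 635, 523 and 649 normalized counts in DMSO replicates 1 to 3, 1021, 1125 and 1296 with VHL-r, and 1188, 1098 and 1019 with R4VPL3-1. Each of the 6 treated libraries was above each DMSO library, and the ranges of the 2 compounds overlapped. The means were 602 ± 68.8 (SD, n = 3) with DMSO, 1147 ± 139 with VHL-r and 1102 ± 84.3 with R4VPL3-1. PER1 was 1.90 times the DMSO mean with VHL-r, a log2 fold change of 0.93 (0.74 to 1.11, limma adjusted p = 1.41e-07), and 1.83 times with R4VPL3-1, a log2 fold change of 0.87 (0.69 to 1.06, adjusted p = 2.12e-07).

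PER2, whose protein is a scaffold of the repressor complex, did not pass the test with either compound. PER2 (ENSG00000132326, chromosome 2, 238244044 to 238290102, minus strand) had 134, 124 and 137 normalized counts with DMSO, 124, 121 and 154 with VHL-r, and 183, 147 and 129.5 with R4VPL3-1. The treatments overlapped, and the 3 R4VPL3-1 libraries spread most. The log2 fold change was 0.0047 with VHL-r (-0.29 to 0.30, adjusted p = 0.988) and 0.20 with R4VPL3-1 (-0.09 to 0.50, adjusted p = 0.334). The R4VPL3-1 value was 0.07 without R4VPL3-1 replicate 1 and 0.32 without R4VPL3-1 replicate 3.

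PER3 (ENSG00000049246, chromosome 1, 7784291 to 7845177, plus strand), the least abundant of the period genes, had 61.75, 77.7 and 77.1 normalized counts with DMSO. It had 92.1, 102 and 85.0 with VHL-r and 106, 95.5 and 119 with R4VPL3-1. All treated libraries were above all DMSO libraries, as for 2601 of the 15230 tested genes with VHL-r and 2911 with R4VPL3-1. The mean was 72.2 ± 9.04 (SD, n = 3) with DMSO and 107 ± 11.7 with R4VPL3-1, and the log2 fold change of 0.56 (0.24 to 0.88) passed the test at an adjusted p of 0.0105. With VHL-r the mean was 93.0 ± 8.48 and the log2 fold change of 0.36 (0.04 to 0.69) did not pass, at an adjusted p of 0.11. The R4VPL3-1 call was lost without DMSO replicate 1, where the log2 fold change was 0.45 and the adjusted p was 0.0608.

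CRY2 rose, whereas its paralog CRY1 passed no test. CRY2 (ENSG00000121671, chromosome 11, 45847118 to 45883248, plus strand) had 169, 191 and 219 normalized counts with DMSO, 343, 384 and 374 with VHL-r, and 418, 416 and 349 with R4VPL3-1. Its treated libraries were all above its DMSO libraries, with a gap wider than the range within any treatment, and the 2 compounds overlapped. The means were 193 ± 25.1 (SD, n = 3), 367 ± 21.4 and 394 ± 39.3. CRY2 was 1.90 times the DMSO mean with VHL-r (log2 fold change 0.93, 0.71 to 1.15, limma adjusted p = 1.51e-06) and 2.04 times with R4VPL3-1 (log2 fold change 1.03, 0.81 to 1.25, adjusted p = 2.46e-07).

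CRY1 (ENSG00000008405, chromosome 12, 106991364 to 107093549, minus strand) encodes the other cryptochrome and was the more abundant of the pair per kb of exon. It had 1011, 976 and 896 normalized counts with DMSO, 968, 929.7 and 900.3 with VHL-r, and 1006, 970.0 and 897 with R4VPL3-1. The 3 treatments covered almost the same range. The log2 fold change was -0.04 with VHL-r (-0.18 to 0.09, adjusted p = 0.728) and -0.0049 with R4VPL3-1 (-0.14 to 0.13, adjusted p = 0.97), so that the limma intervals allow no change of CRY1 as large as the change estimated for CRY2.

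Within the cryptochrome pair the balance therefore shifted. The ratio of CRY2 to CRY1 normalized counts was 0.167, 0.196 and 0.244 in the DMSO libraries, 0.355, 0.414 and 0.415 with VHL-r, and 0.416, 0.429 and 0.389 with R4VPL3-1. The mean ratio was 0.202 ± 0.039 (SD, n = 3) with DMSO, 0.395 ± 0.034 with VHL-r and 0.411 ± 0.02 with R4VPL3-1. Both compounds were above DMSO in every library, with a two-sided exact permutation p = 0.1 each, which is the smallest that 3 against 3 libraries allow. The ratios of the 2 compounds overlapped (exact permutation p = 0.5). Both genes lie in the same library, so the ratio does not depend on its size factor.

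PER1 held 74.6% ± 2.17 (SD, n = 3) of the normalized counts of the 3 period genes with DMSO, 83.5% ± 0.961 with VHL-r and 80.9% ± 0.848 with R4VPL3-1. Every treated library was above every DMSO library (exact permutation p = 0.1 for either compound). The PER1 share was also lower in every R4VPL3-1 library, at 80.4% to 81.9%, than in every VHL-r library, at 82.5% to 84.4% (exact permutation p = 0.1). The summed counts of the 5 period and cryptochrome genes were 1960.3 ± 61.3 with DMSO, 2673 ± 131 with VHL-r and 2714 ± 194 with R4VPL3-1, again without overlap between DMSO and either compound. Most of this rise came from PER1 and CRY2, so the sum restates their calls and does not show a rise of all 5 genes.

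**Figure D2:**
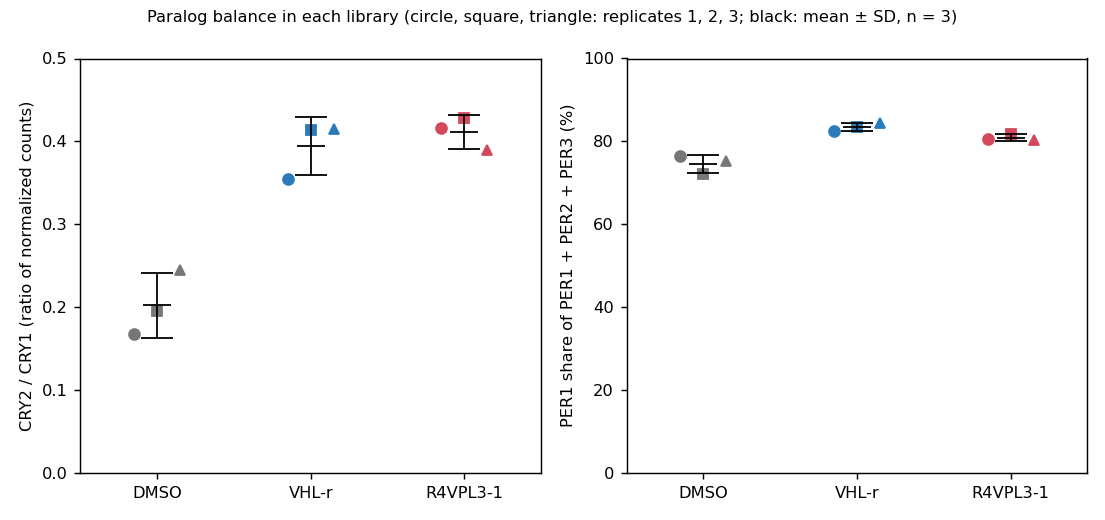
Left, the ratio of CRY2 to CRY1 normalized counts, and right, the share of PER1 in the normalized counts of PER1, PER2 and PER3 in percent, for each library (circles, squares and triangles for replicates 1, 2 and 3) with the mean ± SD in black (n = 3), both axes from 0. The CRY2 to CRY1 ratio was at most 0.244 in the DMSO libraries and at least 0.355 in the treated ones.

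The nuclear receptors NR1D1 and NR1D2 are heme-binding repressors of BMAL1 and of metabolic genes. NR1D1 (ENSG00000126368, chromosome 17, 40092793 to 40100589, minus strand) had 415, 433 and 471 normalized counts with DMSO, 463, 523 and 524 with VHL-r, and 533, 491 and 396 with R4VPL3-1. The R4VPL3-1 libraries held both the highest and the lowest of the 9 values. The log2 fold change was 0.20 with VHL-r (-0.0073 to 0.40, adjusted p = 0.183) and 0.10 with R4VPL3-1 (-0.10 to 0.30, adjusted p = 0.516). In the annotation, 18.0% of the exon bases of NR1D1 lie opposite exons of THRA on the other strand, and reads were counted by strand. Such overlap also covers 16.6% of the exon bases of PER3, 12.8% of BHLHE40 and 10.2% of DBP, and at most 4.2% of the other clock genes.

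NR1D2 (ENSG00000174738, chromosome 3, 23945286 to 23980617, plus strand) had 1838, 1828 and 1945 normalized counts with DMSO, 1922, 1748 and 1847 with VHL-r, and 1808, 1941 and 1976 with R4VPL3-1. These ranges overlapped throughout. The log2 fold change was -0.02 with VHL-r (-0.14 to 0.09, adjusted p = 0.814) and 0.03 with R4VPL3-1 (-0.08 to 0.14, adjusted p = 0.756). The intervals of NR1D2 were the narrowest of the clock genes, and its mean normalized count was the highest of them in each treatment.

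BHLHE40 and BHLHE41 encode E-box repressors that dampen CLOCK and BMAL1 targets. BHLHE40 (ENSG00000134107, chromosome 3, 4979437 to 4985323, plus strand) had 1346, 1063 and 1262.5 normalized counts with DMSO, 1475, 1589 and 1576 with VHL-r, and 1696, 1769 and 1258 with R4VPL3-1. All VHL-r libraries were above all DMSO libraries, while R4VPL3-1 replicate 3 lay within the DMSO range. BHLHE40 was 1.26 times the DMSO mean with VHL-r (log2 fold change 0.34, 0.14 to 0.55, adjusted p = 0.0154) and 1.29 times with R4VPL3-1 (0.35, 0.15 to 0.56, adjusted p = 0.0103). Leaving out single libraries ended these calls. The VHL-r call was lost without DMSO replicate 2 (log2 fold change 0.25, adjusted p = 0.114) or VHL-r replicate 2 (0.32, 0.0656), and the R4VPL3-1 call without DMSO replicate 2 (0.26, 0.0827), R4VPL3-1 replicate 1 (0.29, 0.0545) or R4VPL3-1 replicate 2 (0.26, 0.0823). The VHL-r call was also lost with DESeq2 on the recovered reads (adjusted p = 0.0867), and both were lost with limma's robust option (0.126 and 0.0991).

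BHLHE41 (ENSG00000123095, chromosome 12, 26120030 to 26125037, minus strand) was expressed at a low level, with 61.75, 75.8 and 63.9 normalized counts with DMSO. It had 65.05, 73.5 and 76.8 with VHL-r and 75.6, 65.7 and 74.9 with R4VPL3-1. The treatments overlapped, and the log2 fold change was 0.10 with either compound (adjusted p = 0.748 with VHL-r and 0.703 with R4VPL3-1).

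DBP (ENSG00000105516, chromosome 19, 48630030 to 48637379, minus strand) is the output factor of the group and, in many tissues, one of the transcripts that cycle most. It had 63.6, 60.0 and 88.2 normalized counts with DMSO, 72.05, 81.9 and 86.0 with VHL-r, and 68.2, 96.5 and 98.5 with R4VPL3-1. DMSO replicate 3 lay above all VHL-r libraries and above R4VPL3-1 replicate 1. The log2 fold change of 0.20 with VHL-r (-0.19 to 0.58, adjusted p = 0.531) and of 0.31 with R4VPL3-1 (-0.07 to 0.69, adjusted p = 0.242) did not pass the test, and the intervals leave room for a rise as large as 0.69.

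R4VPL3-1 contains the VHL-r moiety, and both were given at the same dose for the same time, so the 2 compounds can be compared directly. Limma called 0 of the 10 clock genes between them, and 0 had an unadjusted p under 0.05 by limma, edgeR or DESeq2. The lowest unadjusted p was that of PER2 (0.176 by limma, 0.146 by edgeR and 0.2 by DESeq2), whose log2 difference of R4VPL3-1 from VHL-r was 0.20 (-0.10 to 0.49). This PER2 difference was 0.06 without R4VPL3-1 replicate 1 and 0.31 without R4VPL3-1 replicate 3 or VHL-r replicate 3. For PER1 the difference was -0.05 (-0.24 to 0.13, adjusted p = 0.93), for CRY2 it was 0.10 (-0.12 to 0.32, adjusted p = 0.882), and for PER3 it was 0.19 (-0.13 to 0.52, adjusted p = 0.814). The 95% intervals of PER1 and CRY2 thus leave out a further difference of the size that either compound made against DMSO. For PER3, whose call against DMSO was made with R4VPL3-1 and not with VHL-r, the difference between the compounds was not called. The median log2 difference of the 10 genes was 0.05, and that of all tested genes was -0.0056.

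**Figure D3:**
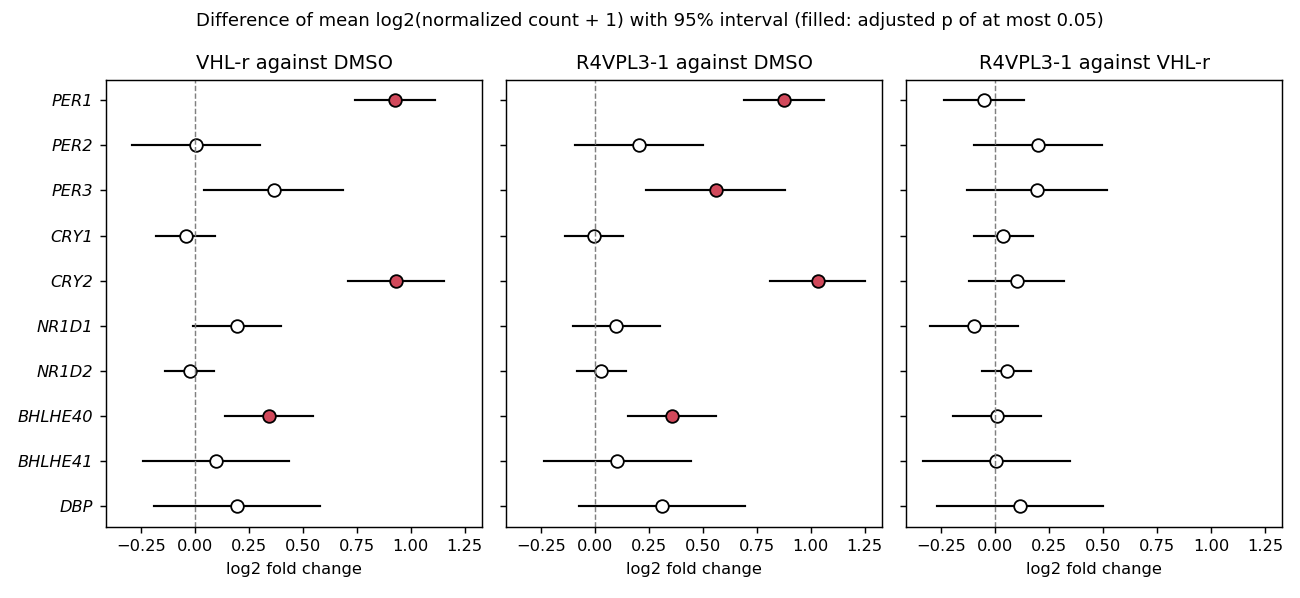
Log2 fold change, the difference of mean log2(normalized count + 1), for the 10 clock genes (points) with 95% intervals (lines) in the 3 comparisons, filled points marking an adjusted p of at most 0.05. PER1 and CRY2 stand at 0.87 to 1.03 in both comparisons with DMSO, and every interval of R4VPL3-1 against VHL-r covers 0.

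The levels of different clock genes were set side by side per length, since longer transcripts give more reads. The ratio, share and sum of counts given above were not divided by length. They serve to compare treatments and do not give the relative abundance of the genes. Per kb of exon (the union of a gene's exons in GENCODE 44), the order of the means with DMSO was BHLHE40 at 348 normalized counts per kb, NR1D2 at 322.9, CRY1 at 201, NR1D1 at 167, PER1 at 86.0, CRY2 at 31.1, PER2 at 18.6, BHLHE41 at 17.4, DBP at 10.9 and PER3 at 8.88. The libraries of neighbours in this order overlapped for BHLHE40 and NR1D2, for PER2 and BHLHE41, and for DBP and PER3, and the other neighbours were separate in all 3 libraries. With both compounds the order of the means was kept, but the steps changed. BHLHE40 was then separate from NR1D2, at 440.0 and 317 per kb with VHL-r and 448 and 329 with R4VPL3-1, and PER1 came to overlap NR1D1, at 164 and 191 with VHL-r and 157 and 180.1 with R4VPL3-1. NR1D1 in turn came to overlap CRY1, at 195 and 200.3 per kb. CRY2, at 59.2 and 63.6 per kb, stayed below PER1 and above PER2 in every library of both compounds. The union takes in the exons of all annotated transcripts, and for DBP it was 6485 bases, most of the gene's interval. A gene whose main transcript is shorter than its union is given too low a level. The place of DBP, and that of other genes, in this order thus depends on the annotation.

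**Figure D4:**
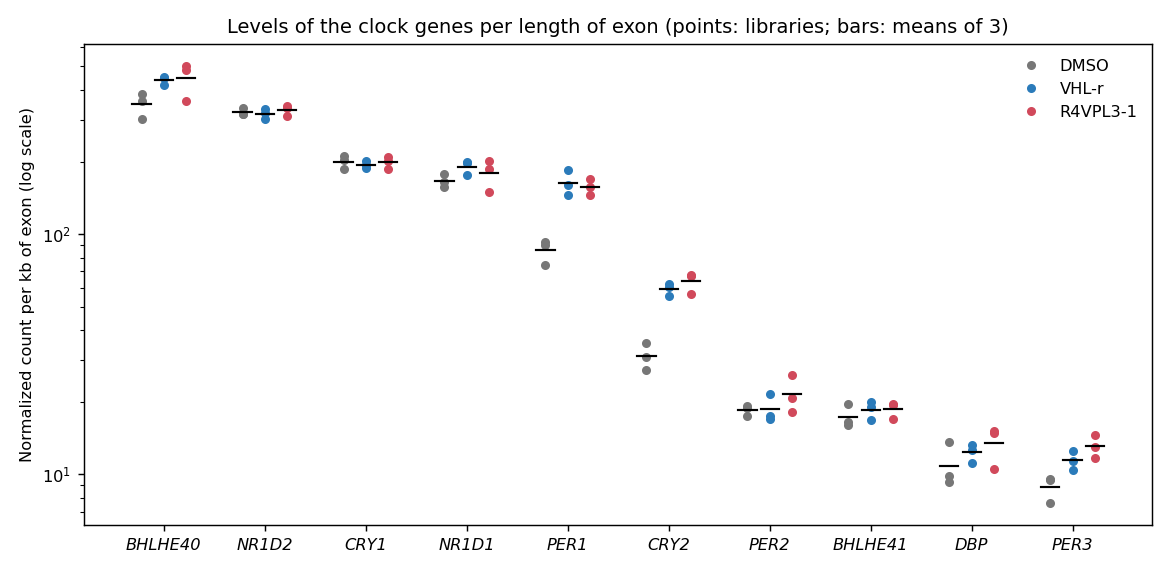
Normalized counts per kb of exon (log axis) of the 10 clock genes, ordered by their DMSO mean, with a point for each library and a bar for the mean of 3 libraries in each treatment. PER1 and CRY2 move up with both compounds, and the levels span from 8.88 per kb (PER3) to 348 per kb (BHLHE40) with DMSO.

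Of the activators, CLOCK and BMAL1 passed no test. The test covered 6 activator genes, of which 1 was called higher and 1 lower with either compound, beside 10.3% and 9.51% of all tested genes with VHL-r and 13.1% and 11.8% with R4VPL3-1. CLOCK had 1690 ± 73.4 normalized counts (SD, n = 3) with DMSO, 1579 ± 91.6 with VHL-r and 1540.0 ± 71.4 with R4VPL3-1, and BMAL1 had 448 ± 25.5, 420 ± 23.3 and 431 ± 2.43. The limma adjusted p with VHL-r and R4VPL3-1 was 0.272 and 0.1 for CLOCK, and 0.49 and 0.683 for BMAL1. BMAL2, a paralog of BMAL1, fell with both compounds, with a log2 fold change of -0.30 for VHL-r (adjusted p = 0.0141) and -0.24 for R4VPL3-1 (adjusted p = 0.0415). RORB and RORA, nuclear receptors that compete with NR1D1 and NR1D2 for their sites, were each called higher with 1 compound, RORB with VHL-r (log2 fold change 0.33, adjusted p = 0.0214) and RORA with R4VPL3-1 (0.52, adjusted p = 0.00631). RORB was at 0.21 with R4VPL3-1 and RORA at 0.25 with VHL-r, and for neither gene was the difference between the compounds called. The calls of BMAL2 and RORB were lost when certain single libraries were left out, with adjusted p up to 0.0928 and 0.203 for BMAL2 and 0.11 for RORB. With all 9 libraries, the BMAL2 call with R4VPL3-1 was also lost with DESeq2 on the recovered reads (adjusted p = 0.0503) and with no filter on low values (0.0558).

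Among 6 accessory and output factors, 4 were tested and NFIL3, which binds the same D-boxes as DBP and represses through them, was called in all 3 comparisons. This 1 of 4 stands beside 10.3% of all tested genes called higher with VHL-r, 13.1% with R4VPL3-1 and 1.14% between the compounds. NFIL3 had 365 ± 13.2 normalized counts (SD, n = 3) with DMSO, 589 ± 11.9 with VHL-r and 783 ± 83.8 with R4VPL3-1. Its log2 fold change was 0.69 (0.52 to 0.85, adjusted p = 1.67e-06) with VHL-r and 1.09 (0.93 to 1.26, adjusted p = 1.35e-09) with R4VPL3-1. The difference between the compounds, 0.41 (0.24 to 0.57), passed the test at an adjusted p of 0.0047, but not without R4VPL3-1 replicate 1 (0.33, adjusted p = 0.0626). The other tested factors, TEF, CIART and TIMELESS, were not called in any comparison. HLF was below the mean of 10, and CIPC was listed at 0 in all libraries.

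Of 16 kinases and ubiquitin enzymes that act on clock proteins, 15 were tested. With VHL-r 2 were called higher and 1 lower, beside 10.3% and 9.51% of all tested genes, and with R4VPL3-1 2 higher and 2 lower, beside 13.1% and 11.8%, so these counts are near the background. SIAH2, a ubiquitin ligase that targets NR1D1 and NR1D2 for degradation, had 1034 ± 10.1 normalized counts (SD, n = 3) with DMSO, 1203 ± 40.4 with VHL-r and 1535 ± 170 with R4VPL3-1. Its log2 fold change was 0.22 with VHL-r (adjusted p = 0.0266) and 0.56 with R4VPL3-1 (adjusted p = 2.1e-06), and the difference of 0.35 between the compounds was called (adjusted p = 0.00489). With VHL-r, GSK3B was also called higher (0.16, adjusted p = 0.0263) and PRKAA1, a catalytic subunit of AMPK, lower (-0.15, adjusted p = 0.0311). With R4VPL3-1, the deubiquitinase USP2 was called higher (0.46, adjusted p = 0.0422), and the ligase subunit FBXW11 (-0.13, adjusted p = 0.0328) and the casein kinase CSNK1A1 (-0.12, adjusted p = 0.0466) were called lower. Every call named here except that of SIAH2 with R4VPL3-1 against DMSO was lost under 1 or more of the 19 alternatives, the difference of SIAH2 between the compounds without R4VPL3-1 replicate 1 (0.29, adjusted p = 0.0562). CSNK1D and CSNK1E, kinases best known for acting on the PER proteins, were not called in any comparison.

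Clock-controlled genes outside the loop moved in different directions. Of 7 tested, 2 were called higher and 1 lower with VHL-r, beside 10.3% and 9.51% of all tested genes, and 2 higher and 2 lower with R4VPL3-1, beside 13.1% and 11.8%. KLF9, a transcription factor gene, had 3522 ± 203 normalized counts (SD, n = 3) with DMSO, 1732 ± 38.8 with VHL-r and 1337 ± 97.9 with R4VPL3-1. Its log2 fold change was -1.02 with VHL-r (adjusted p = 7.49e-11) and -1.40 with R4VPL3-1 (adjusted p = 2.17e-13). The difference between the compounds was -0.38 (adjusted p = 0.000448). KLF10 was higher with VHL-r (0.33, adjusted p = 0.00212) and lower with R4VPL3-1 (-0.33, adjusted p = 0.0018), with a difference between the compounds of -0.65 (-0.80 to -0.50, adjusted p = 5.45e-06). LPIN1, which encodes a phosphatidate phosphatase, rose with both compounds (0.32, adjusted p = 0.000181, and 0.56, adjusted p = 1.15e-07). Its difference of 0.24 between the compounds passed the test (adjusted p = 0.0206), but not without R4VPL3-1 replicate 1 (0.21, adjusted p = 0.157), R4VPL3-1 replicate 3 (0.22, 0.0647) or VHL-r replicate 2 (0.22, 0.163). PPARA was called higher with R4VPL3-1 (0.23, adjusted p = 0.045), a call lost under 10 of 19 alternatives. WEE1, NAMPT and TSC22D3 were not called in any comparison.

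**Figure D5:**
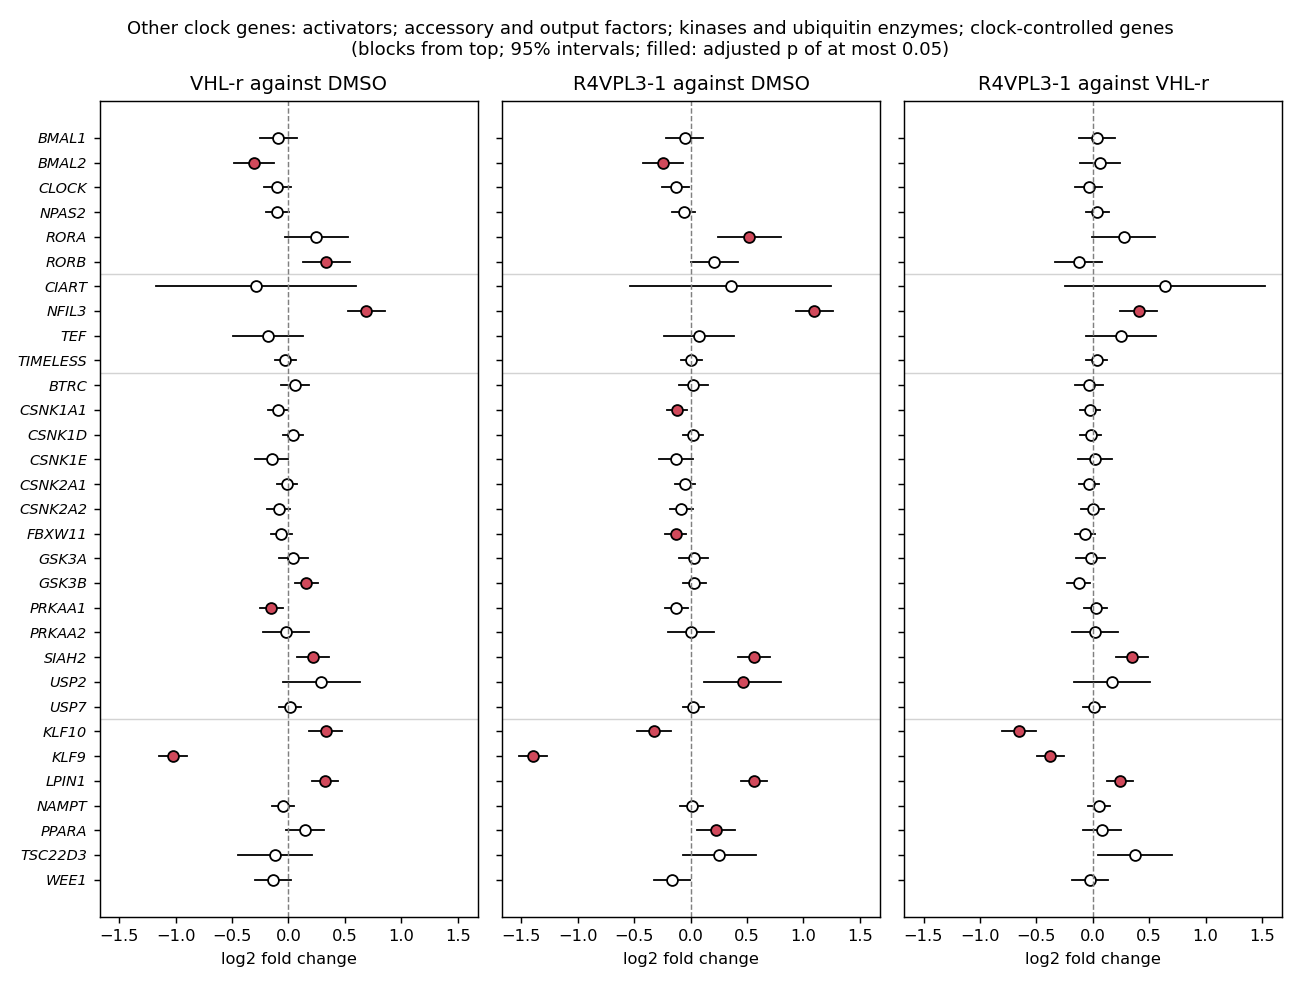
Log2 fold change (points) with 95% intervals (lines) in the 3 comparisons for tested genes of 4 lists, from the top the activators, the accessory and output factors, the kinases and ubiquitin enzymes, and the clock-controlled genes, filled points marking an adjusted p of at most 0.05. NFIL3 (0.69 and 1.09 against DMSO) and KLF9 (-1.02 and -1.40) lie farthest from 0.

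CRY2 was the clock gene whose treatment means lay farthest apart, by 1.03 on the log2 scale. The 5 genes with the pattern most like it over the 9 libraries, by Pearson's r of log2(normalized count + 1), were FAM102A (r = 0.991), PCDH19 (0.988), CFAP53 (0.987), the gene ENSG00000279207, which has no symbol in the table (0.987), and VAMP1 (0.985). FAM102A went from 890.6 ± 90.1 normalized counts (SD, n = 3) with DMSO to 1293 ± 18.7 with VHL-r and 1351 ± 85.5 with R4VPL3-1, and VAMP1 from 105 ± 27.5 to 349 ± 28.9 and 405 ± 23.7. CFAP53 went from 118 ± 5.93 to 212 ± 11.0 and 221 ± 20.7, and PCDH19 from 3.24 ± 0.72 to 23.3 ± 3.71 and 28.5 ± 3.11. These correlations rest on the same libraries and on the step from DMSO to the compounds, and 195 of the tested genes had an r above 0.95 with CRY2.

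The 9 libraries held 26435568 to 32085626 reads in genes, with a median of 28165279, and the lowest value among the clock genes was that of DBP in DMSO replicate 2, at 60.0 normalized counts. As a check of the cells, 6 of 8 melanocyte lineage markers had a mean of at least 10, while MLANA was at 0 in all libraries and TYR at most at 2 reads. Their summed normalized counts ran from 26499 to 29437 with DMSO, from 16625 to 20623 with VHL-r and from 14850 to 17822 with R4VPL3-1, as SOX10, MITF and ERBB3 were called lower with both compounds. Of 8 markers of epithelial, blood, endothelial and liver cells, 2 (KRT5 and KRT14) had such a mean, ALB was at 0 in all libraries, and their sum ran from 370 to 403 with DMSO, 308 to 332 with VHL-r and 265 to 308 with R4VPL3-1. The part of these shifts in the clock gene results was not tested.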

How the data were processed

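RNA of A375R cells was measured by poly(A), strand-specific RNA-seq. Per the methods, single reads of 100 bases were aligned to GRCh38 (Ensembl annotation) by STAR, counted by htseq-count with its reverse setting, and DESeq2 1.36.0 gave the size factors. The authors deposited a normalized signal, the reads of a gene divided by the library's size factor, to 2 decimals. Every value column was used. From these values the reads were rebuilt as multiples of the value of 1 read, and in each library 99.974% or more of the non-zero values were whole to within 0.006.

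Libraries were grouped by their labels, with 3 in each treatment. As the values are normalized, the test was limma 3.58.1 (R 4.3.3, trend option) on log2(value + 1), with treatment as its only term. It covered the 15230 genes whose mean over the 9 libraries reached 10, and the threshold was an adjusted p (Benjamini-Hochberg) of 0.05. Alternatives were pseudocounts of 0.1 and 5, no filter, a mean of at least 50, TMM rescaling, the replicate number as a block, a robust limma fit, the count tests of edgeR 4.0.16 and of DESeq2 1.42.0 on rebuilt reads, only the 6 libraries compared, and leaving out each library. Ratios within a library were compared by a two-sided exact permutation test.

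The members, the lists (activators, accessory and output factors, kinases and ubiquitin enzymes, clock-controlled genes, CREB pathway, hypoxia-inducible genes, cell markers) and the tests were chosen with earlier results of these data known. Named are the members, every list gene called in any comparison, and the 5 genes most correlated with the member whose means differ most; CLOCK, BMAL1, uncalled list genes and untested ones were named in addition, and some list genes are not reported here. Gene intervals and exon lengths came from GENCODE 44, which gives the same intervals as the deposited table for all 10 members, and promoter windows from RefSeq. PER3, BHLHE41 and DBP rest on 61 to 113 reads per library, so that counting error is a large part of their spread, and p-values measure the spread between these repeats.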

Additional observations from a re-analysis of the deposited data

How the results depend on the processing

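The number of clock genes called ranged from 2 to 3 for VHL-r against DMSO and from 3 to 4 for R4VPL3-1 against DMSO, and was 0 between the compounds, over the 19 alternatives to each comparison. PER1 and CRY2 kept both calls under all of them, with log2 fold changes from 0.83 to 1.01 and 0.78 to 0.93 for PER1 and from 0.84 to 1.03 and 0.94 to 1.13 for CRY2. Of 570 member values under alternatives, 543 kept their direction and side of the threshold, 9 lost a call, all of BHLHE40 or PER3 as given above, and 18 turned in sign, none of them a called value. The turned values were those of CRY1 with R4VPL3-1, which was 0.0045 with TMM rescaling and 0.0047 with edgeR, and of genes that turned when single libraries were left out. The ranges without single libraries were -0.0542 to 0.0412 for CRY1 with R4VPL3-1, -0.1037 to 0.0685 for PER2 and -0.0574 to 0.0112 for NR1D2 with VHL-r, and, between the compounds, -0.1347 to 0.0372 for PER1, -0.188 to 0.0259 for NR1D1, -0.0821 to 0.1637 for BHLHE40 and -0.0625 to 0.0709 for BHLHE41. The cause was not tested.

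Of the other clock genes, calls against DMSO were lost without DMSO replicate 1 (BMAL2, RORB, PRKAA1, SIAH2, CSNK1A1, FBXW11, USP2, PPARA), DMSO replicate 2 (the same genes and GSK3B, with BMAL2 lost for R4VPL3-1 alone), DMSO replicate 3 (GSK3B, PRKAA1, SIAH2, FBXW11, PPARA), VHL-r replicate 1 (GSK3B, RORB, SIAH2), VHL-r replicate 2 (BMAL2, RORB, GSK3B, PRKAA1, SIAH2, CSNK1A1, FBXW11, PPARA), VHL-r replicate 3 (BMAL2, PRKAA1), R4VPL3-1 replicates 1 or 2 (BMAL2, CSNK1A1, FBXW11, USP2, PPARA) and R4VPL3-1 replicate 3 (CSNK1A1, USP2, PPARA). The SIAH2 call lost here was that with VHL-r. With all libraries, calls were also lost with no filter on low values (BMAL2 with R4VPL3-1, GSK3B, PRKAA1, CSNK1A1, FBXW11, USP2, PPARA), DESeq2 (BMAL2 with R4VPL3-1, USP2, PPARA), TMM rescaling or edgeR (CSNK1A1) and only the 6 libraries compared (CSNK1A1, PPARA).

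With the replicate number as a block, 3, 4 and 0 clock genes were called, as without it, while calls over all genes went from 3016 to 3451, from 3792 to 4241 and from 285 to 389. Same-numbered libraries correlated in their deviations from the treatment means at -0.006 to 0.121 over 9 pairs, with 2 pairs over 0.1. For 4 of 9 libraries the same number correlated best in both other treatments. The labels do not say whether same-numbered libraries come from the same repeat, and a tie between them was not tested. The 4 genes with the widest intervals were DBP, BHLHE41, PER3 and PER2, which also had the lowest normalized counts.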

Other observations

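Beside the clock genes, 2 lists were counted, of CREB pathway genes and of hypoxia-inducible genes. The CREB list holds parts of the pathway itself, such as CREB1, ATF1 and the CRTC genes, beside genes that respond to cAMP. Its counts and median are therefore not a measure of the response to cAMP. Of 13 tested genes of the CREB pathway, 1 was called higher and 1 lower with either compound, beside 10.3% and 9.51% of all tested genes with VHL-r and 13.1% and 11.8% with R4VPL3-1. The median log2 fold change was 0.04 with VHL-r and 0.08 with R4VPL3-1. NR4A3, an orphan nuclear receptor gene that is a rapid target of cAMP signalling, rose with both (0.69, limma adjusted p = 0.000272, and 0.82, adjusted p = 3.03e-05). Its paralog NR4A2 was lower with VHL-r (-0.50, adjusted p = 0.00353) and higher with R4VPL3-1 than with VHL-r (0.63, adjusted p = 0.00268). PDE4D, a cAMP phosphodiesterase gene, was lower with R4VPL3-1 (-0.40, adjusted p = 0.00134).

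Of 15 tested hypoxia-inducible genes, 5 were called higher and 3 lower with VHL-r (median log2 fold change -0.0039), beside 10.3% and 9.51% of all tested genes, 9 higher and 2 lower with R4VPL3-1 (median 0.30), beside 13.1% and 11.8%, and 6 higher and 0 lower with R4VPL3-1 than with VHL-r (median 0.20), beside 1.14% and 0.729%. BHLHE40 itself differed by 0.01 between the compounds (-0.19 to 0.21). EGLN3, a HIF prolyl hydroxylase gene, rose with both compounds (1.51, adjusted p = 0.000413, and 1.46, adjusted p = 0.000435), as did KDM3A (0.51 and 0.93), NDRG1 (0.34 and 0.59), PFKFB3 (0.26 and 0.18) and ANKRD37 (0.47 and 1.94). The level of EGLN3 was low, at 11.7 ± 3.89 normalized counts (SD, n = 3) with DMSO, 34.1 ± 4.69 with VHL-r and 32.9 ± 2.58 with R4VPL3-1. VEGFA (0.32), P4HA1 (0.26), PDK1 (0.33) and BNIP3 (0.66) were called higher with R4VPL3-1 against DMSO, not with VHL-r, and for P4HA1 the difference between the compounds was not called. PFKFB4 (-0.56 and -0.58) and CITED2 (-0.51 and -0.62) were lower with both compounds, and ADM was lower with VHL-r (-0.60). Those higher with R4VPL3-1 than with VHL-r were ANKRD37 (1.47), ADM (0.90), BNIP3 (0.54), VEGFA (0.44), KDM3A (0.42) and PDK1 (0.40). The PDK1 call against DMSO was lost without R4VPL3-1 replicate 1, where it was 0.21 (adjusted p = 0.0747), and that between the compounds without R4VPL3-1 replicate 1 (0.27, 0.157), VHL-r replicate 2 (0.42, 0.0561) or VHL-r replicate 3 (0.33, 0.123), and with limma's robust option on all libraries (0.40, 0.0509). The PFKFB3 call with R4VPL3-1 was lost without DMSO replicate 2 (0.15, adjusted p = 0.0734) or R4VPL3-1 replicate 2 (0.15, 0.0546). How these lists relate to the clock gene results was not tested.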
